A study of Mus musculus with 2 samples.

Results

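Ube2 genes encode ubiquitin-conjugating enzymes (E2) and Usp genes the ubiquitin-specific proteases, the largest group of deubiquitinases. Both were compared on 2 arrays of mouse T cells, 1 without and 1 with triptolide. Members were all genes on the array whose symbol begins with Ube2 or is Usp followed by a number, leaving out Ube2c, Usp7 and Usp18. They came to 80 of 18193 genes, with 32 in the Ube2 family (80 probe sets) and 48 in the Usp family (118 probe sets). The choice by name also takes in genes that are neither E2 nor deubiquitinase. Ube2cbp encodes an E2-binding protein, Ube2d-ps is a pseudogene, and Usp6nl encodes a GTPase-activating protein for RAB5.

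Primary T cells were stimulated with antibodies to CD3 and CD28, and 1 of the cultures also received triptolide at 50 ng/ml. Triptolide is a plant diterpenoid that binds the XPB subunit of the transcription factor TFIIH. Purified cells were kept in medium for 18 h, and the labels give neither the length of triptolide exposure nor the number of animals. Each condition was measured on 1 array, so no p-value, SD or standard error between cultures is possible, and each difference below is between these 2 arrays.

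Ubiquitin is activated by an E1 enzyme, handed to the active-site cysteine of an E2, and passed to a substrate with the help of an E3 ligase. The E2 often sets which chain is built: chains through lysine 48 of ubiquitin send proteins to the proteasome, while chains through lysine 63 serve in signalling and DNA repair. Deubiquitinases cut ubiquitin off again. In T cells both steps tune antigen receptor and NFκB signalling and the stability of transcription factors. The roles named below come from work in human and mouse cells and in part from yeast, and are given as background.

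Values are MAS5 signals, a background-subtracted brightness in arbitrary units on a linear scale. A background floor of 118.39 was taken from probe sets of chemosensory receptor genes, and a gene was called detected where its signal was above the floor on at least 1 array. Signals under the floor were raised to it before ratios were taken, so that a fold with 1 side at the floor is a lower bound, written "at least". The probe set with the brightest mean log2 signal stands for its gene and is called the main probe set here, and other probe sets are given beside it. Signals of different genes are no measure of which transcript is more abundant, because probes differ in how strongly they bind.

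The T cell label was checked on 12 T cell marker genes, all of them detected, with signals of 971.7 to 14193.6 without and 400.4 to 10065.4 with triptolide. Their signals summed to 70323.5 and 49647.1, and 4 of the 12 were at least 2-fold lower with triptolide. Of markers of other cells, 4 of 5 B cell, 4 of 7 myeloid and 2 of 3 natural killer genes were detected, while Pax5, Cd14, Fcgr3, Itgam and Ncr1 were below the floor on both arrays. Summed signals were 1093.8 without and 1296.6 with triptolide for B cell, 4943.1 and 6928.5 for myeloid and 679.4 and 1165.4 for natural killer markers. Most of the myeloid sum was Ctss (4321.2 and 5970.9), which other cells also express, and most of the natural killer sum was Klrd1 (488.7 and 965.7). Of these markers only Lyz2 passed 2-fold (72.2, under the floor, to 259.5, at least 2.19-fold higher). The part of these shifts in the results below was not tested. In such a mixed RNA sample, fewer cells of a type and less RNA per cell cannot be told apart.

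Of the 32 Ube2 genes, 26 were detected, all on both arrays, and none of the 26 differed by 2-fold or more between the arrays. Ratios ran from a log2 of -0.95 (Ube2g1) to 0.90 (Ube2r2), with a median of 0.02 and 13 genes on each side of 0. Among all 10886 detected genes, 5.6% were at least 2-fold higher and 12.4% at least 2-fold lower, the median log2 ratio was -0.16, and 60.2% lay below 0. Against that median as the zero line, 10 of the 26 Ube2 genes lay below it. The 6 undetected members were Ube2cbp, Ube2d-ps, Ube2d2b, Ube2l6, Ube2ql1 and Ube2u. Ube2l6, the E2 for the interferon-induced modifier ISG15, had signals of 29.6 and 5.9.

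Of the 48 Usp genes, 39 were detected, 36 of them on both arrays. With triptolide 3 were at least 2-fold higher (Usp38, Usp19 and Usp49) and 2 at least 2-fold lower (Usp3 and Usp53), that is 7.69% and 5.13% beside 5.6% and 12.4% of all detected genes. The median log2 ratio was -0.32, and 23 of 39 (59%) lay below 0, near the 60.2% of all detected genes. Below the shared median of -0.16 lay 22 of 39. The undetected Usp genes were Usp2, Usp17la, Usp26, Usp27x, Usp29, Usp43, Usp44, Usp50 and Usp9y. With 1 array per group, the difference between either family and all genes was not tested.

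**Figure D1:**
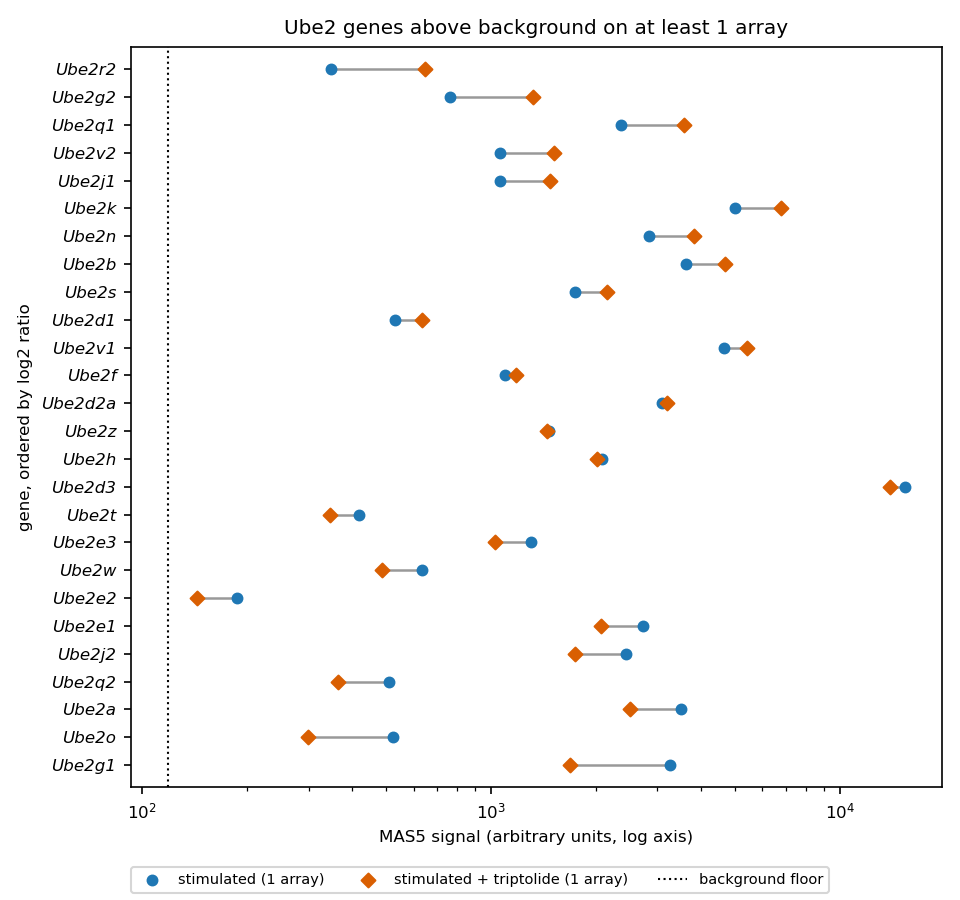
MAS5 signal (log axis) of the main probe set of the 26 detected Ube2 genes, ordered by log2 ratio, with circles for the stimulated array and diamonds for the array with triptolide, and the background floor of 118.39 dotted. All pairs of points lie less than 2-fold apart and right of the floor; Ube2r2 is at the top with 348.6 and 648.5, Ube2g1 at the bottom with 3259.7 and 1684.1.

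Of the 7 E2 enzymes that work with many E3 ligases, 5 had a ratio below 0, as had 60.2% of all detected genes. Ube2d3, a member of the UBCH5 group of E2 enzymes, had signals of 15402.3 without and 13911.3 with triptolide (log2 -0.15). Its 7 probe sets spread from -1.10 to 0.24, 5 of them lower, and 1 of them was at least 2-fold lower (601.0 to 279.8). Its relative Ube2d2a, whose product is nearly the same protein, had 5 detected probe sets, and the 4 measured on both arrays spread from -0.12 to 0.05. Ube2d1 had a log2 ratio of 0.26 (530.5 to 635.1). Ube2e1, Ube2e2 and Ube2e3, E2 enzymes with an added N-terminal stretch, had -0.40, -0.38 and -0.34. A second, dim probe set of Ube2e1 went the other way (200.4 to 266.0). Ube2w, which attaches ubiquitin to the N-terminus of proteins, had -0.37 and, on another probe set, -0.67. The median of these 7 genes was -0.34.

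Builders of lysine 48 chains and E2 enzymes of the endoplasmic reticulum (ER) went in both directions. Ube2g1, which extends chains on targets of cullin ligases, was lower on both its probe sets, at 3259.7 to 1684.1 (log2 -0.95) and 671.7 to 398.7 (log2 -0.75). Ube2g2, the closest relative of Ube2g1 and an E2 of ER-associated degradation, was higher on both, at 761.6 to 1316.7 (log2 0.79) and 342.9 to 794.6 (log2 1.21). The pair thus lay on opposite sides of 0 on all 4 probe sets. Ube2r2, a CDC34-type E2 for SCF ligases, had 348.6 and 648.5 (log2 0.90) and, on its other probe set, 0.29. Ube2k, which builds lysine 48 chains on its own, had 5025.2 and 6786.6 (log2 0.43), and 0.75 on its other measured probe set. Of the membrane-anchored E2 enzymes of the ER, Ube2j2 was lower on both probe sets, at 2436.9 to 1744.8 (log2 -0.48) and 414.6 to 150.7 (log2 -1.46). The 2 probe sets of Ube2j1 disagreed (1062.2 to 1475.8 and 1349.1 to 890.2), so that no direction is given for it.

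The lysine 63 module consists of the E2 Ube2n and its inactive partners Ube2v1 and Ube2v2. All of them had a ratio above 0 on the main probe set, as had 39.8% of all detected genes. Ube2n had 2833.4 and 3815.8 (log2 0.43), and its second probe set, under the floor on the stimulated array, gave at least 2.77-fold more with the drug (28.1 to 327.7). Ube2v1 had 4652.1 and 5436.7 (log2 0.22), and 0.17 on its other probe set. Ube2v2 had 0.52 on the main probe set and -0.41 on another. All main ratios here were smaller than 2-fold, as were 82% of those of all detected genes.

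Among E2 enzymes of DNA repair and the cell cycle, Ube2a and Ube2b encode nearly identical RAD6 proteins, which ubiquitinate PCNA and histone H2B. Ube2a had -0.49 (3511.1 to 2496.2) on its main probe set and 0.56 (765.1 to 1124.2) on the other. Ube2b had 0.37 (3618.8 to 4682.4) on the main probe set and -0.26 and -0.47 on the 2 others measured on both arrays. Neither gene therefore has a settled direction. Ube2t, the E2 of the Fanconi anaemia pathway, had -0.27 (417.1 to 345.8), and Ube2s, which extends lysine 11 chains for the anaphase-promoting complex, had 0.31 (1743.5 to 2154.6). Ube2f, an E2 for NEDD8, had 0.10, and its 5 probe sets measured on both arrays spread from -0.18 to 0.29. Ube2z, which is charged by the E1 enzyme UBA6, had -0.01 on its main probe set and 0.55 on a dimmer one (157.5 to 231.2).

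Ube2h, an E2 of the CTLH ligase, gave different ratios on its 4 probe sets. Its main probe set had 2088.0 and 2013.4 (log2 -0.05), while the others were higher, at 1041.1 to 2282.4 (log2 1.13), 1296.2 to 2413.2 (log2 0.90) and 60.3 to 599.4 (at least 5.06-fold). Their median was 1.01. Ube2o, an unusually large E2 that also acts as an E3, had 522.8 and 298.6 (log2 -0.81) on its single probe set. The less studied Ube2q1 and Ube2q2 had 0.60 (2357.7 to 3569.8) and -0.48 (509.9 to 364.6), and the dimmer probe set of Ube2q1 had -0.24.

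**Figure D2:**
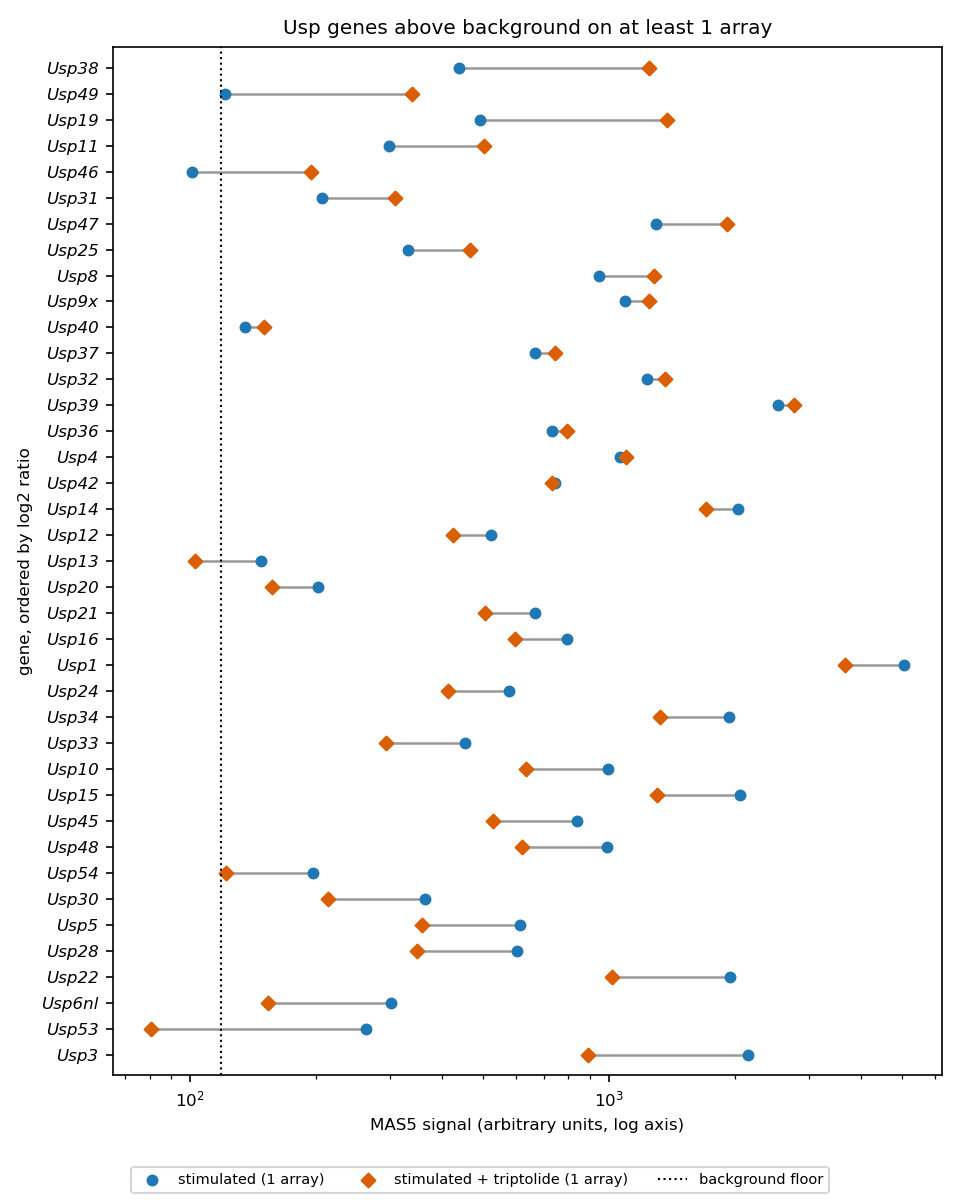
MAS5 signal (log axis) of the main probe set of the 39 detected Usp genes, drawn as for the Ube2 genes. Usp38, Usp49 and Usp19 at the top have higher signals with triptolide, Usp53 and Usp3 at the bottom lower ones, and Usp46, Usp13 and Usp53 cross the floor of 118.39.

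Usp3, a nuclear protease that removes ubiquitin from histones H2A and H2B, had the lowest ratio of the Usp genes measured on both arrays. Its main probe set went from 2151.6 to 889.1, 2.42-fold lower with triptolide. Others went from 1268.0 to 370.2 (log2 -1.78), from 658.4 to 275.1 (log2 -1.26) and from 221.6 to 174.3 (log2 -0.35). All 4 probe sets measured on both arrays were thus lower. The fifth, below the floor without triptolide, went the other way (29.8 to 156.2). Usp22, the deubiquitinase of the SAGA coactivator complex, was lower on both its probe sets, from 1940.2 to 1014.0 (log2 -0.94) and from 382.7 to 129.8 (log2 -1.56). Usp16, another H2A protease, had -0.41 (793.7 to 596.9) and Usp42 had -0.03 (744.9 to 729.9). Usp49, which acts on H2B, was 2.79-fold higher (121.2 to 338.3). Its stimulated signal lay just above the floor, its second probe set was below the floor on both arrays, and with the floor doubled its log2 ratio was 0.51.

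Usp38, a regulator of JUNB protein and cytokine output in T cells, was 2.84-fold higher on its single probe set (438.9 to 1244.7). Usp48, a nuclear protease that acts on H2A at the site used by BRCA1, was lower on all 3 probe sets, from 988.4 to 618.1 (log2 -0.68), from 726.6 to 288.8 (log2 -1.33) and from 462.6 to 191.7 (log2 -1.27). Its main probe set was the least changed of them, so that the count by main probe sets left Usp48 within 2-fold.

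Upstream sequences are shown for Usp3 and Usp48, whose measured probe sets were all lower, and for Usp38 and Usp49, which were at least 2-fold higher. They are the 250 bases before the RefSeq start on the gene's strand (GRCm38.p6), with the GC box GGGCGG in capitals where it occurs on either strand. Usp3 lies at chr9:66593116-66593365 (minus strand), Usp48 at chr4:137593922-137594171 (plus), Usp38 at chr8:81014907-81015156 (minus) and Usp49 at chr17:47630440-47630689 (plus).
Usp3: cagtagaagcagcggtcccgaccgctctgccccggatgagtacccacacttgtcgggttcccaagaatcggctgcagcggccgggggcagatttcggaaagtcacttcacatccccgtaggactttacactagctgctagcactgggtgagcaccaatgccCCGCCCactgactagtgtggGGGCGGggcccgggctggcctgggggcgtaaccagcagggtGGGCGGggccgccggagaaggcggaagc
Usp48: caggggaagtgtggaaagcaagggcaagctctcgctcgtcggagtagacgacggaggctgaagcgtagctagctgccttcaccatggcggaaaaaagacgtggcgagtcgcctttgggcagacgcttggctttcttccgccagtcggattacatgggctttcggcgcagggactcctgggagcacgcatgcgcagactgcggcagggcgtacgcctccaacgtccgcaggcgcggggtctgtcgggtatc
Usp38: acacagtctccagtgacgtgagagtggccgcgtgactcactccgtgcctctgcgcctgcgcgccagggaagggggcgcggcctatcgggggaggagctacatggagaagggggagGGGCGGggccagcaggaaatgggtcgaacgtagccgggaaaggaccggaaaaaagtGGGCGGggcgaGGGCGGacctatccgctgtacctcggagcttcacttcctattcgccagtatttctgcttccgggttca
Usp49: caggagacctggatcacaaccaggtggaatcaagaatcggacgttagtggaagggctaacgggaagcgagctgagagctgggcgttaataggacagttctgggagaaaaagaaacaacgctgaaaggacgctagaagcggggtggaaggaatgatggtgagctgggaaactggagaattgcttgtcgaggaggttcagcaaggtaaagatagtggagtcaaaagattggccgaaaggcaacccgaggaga
The GC box occurred 3 times each in Usp3 and Usp38 and not in Usp48 and Usp49. These 4 genes were picked by their ratios, and a link between motif and ratio was not tested. The GC box occurred in 32.7% of 32851 promoter stretches of the same length. Among members it occurred in 25 of 35 Ube2 and 24 of 38 Usp stretches, some genes having more than 1 start. The 32851 stretches cover 27025 genes, detected or not, and no comparison with detected genes alone was made. The CCAAT box (CCAAT on either strand) was found once in Usp3 and once in Usp49. It occurred in 33.8% of all, 17.1% of Ube2 and 23.7% of Usp stretches. None of the 4 held TATAAA, which 12.4% of all, 5.71% of Ube2 and 5.26% of Usp stretches did. GC content was 66.0% for Usp3, 62.8% for Usp48, 64.0% for Usp38 and 51.2% for Usp49. Sequences were found for 63 of the 80 members, 26 Ube2 and 37 Usp genes.

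All 7 detected proteases of DNA repair and replication, Usp48 among them, lay within 2-fold on the main probe set, as did 82% of all detected genes. The median of the 7 was -0.47. Usp1, which removes ubiquitin from FANCD2 and PCNA, was lower on all 3 probe sets (log2 -0.56 to -0.27), the main one at 5072.0 and 3665.3. Its activating partner Wdr48, picked after its value was seen, had -0.76 (902.7 to 531.6). The other enzymes that WDR48 binds, Usp12 and Usp46, had -0.30 (521.3 to 423.9) and at least 1.64-fold higher (101.2 to 193.9, the former under the floor). Usp28, a protease that stabilises MYC and takes part in the p53 response, had -0.80 (603.2 to 347.4), and Usp45, which acts on the repair nuclease ERCC1, had -0.67 (839.5 to 528.3) on the main probe set and 0.02 on another. Usp11, a partner of BRCA2, had 0.75 (298.8 to 501.9), and Usp37, which acts on cyclin A, had 0.16 and 0.80. Usp47, a regulator of DNA polymerase beta, had 0.56 (1297.9 to 1915.4) on the main probe set but -0.42 (1100.5 to 822.0) and -0.79 (584.3 to 338.1) on the others.

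Of the 3 detected proteases that recycle ubiquitin, none differed by 2-fold on the main probe set, and all had a ratio below 0. Of all detected genes, 82% lay within 2-fold and 60.2% below 0. Usp5, which takes apart free chains, had -0.78 (614.0 to 356.9). Usp14, the deubiquitinase bound to the proteasome, was lower on all 4 probe sets, between -1.40 and -0.26, with the main one at 2037.4 and 1704.3. Usp13, a relative of Usp5, had 147.3 and 102.7, the latter under the floor.

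Proteases tied to T cell signalling and transcription factors spread on both sides of 0, with a median of 0.05 over 9 genes. Usp15, which acts on MDM2, had -0.65 (2051.2 to 1303.5), Usp10, which acts on p53 and T-bet, -0.65 (992.9 to 633.0), and Usp34 -0.55 (1938.2 to 1324.0) and -0.28. Usp21, a protease of GATA3 and FOXP3, had -0.39. On the other side, Usp25, a brake on IL-17 receptor signalling, had 0.49 (330.4 to 464.4). Usp9x, needed for full antigen receptor signalling, had 0.19, and its 5 probe sets measured on both arrays spread from -0.22 to 0.44. Usp4, a protease of TRAF proteins, had 0.05. Usp8, an endosomal protease needed for T cell maturation, had 0.43 (948.8 to 1280.4) and -0.94 (724.5 to 378.3), so that no direction is given.

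Of the Usp genes grouped under ER, mitochondria, Golgi and endosome, Usp19 was 2.79-fold higher on its main probe set (492.8 to 1374.8). Usp19 has an ER-anchored form. The other Usp19 probe set measured on both arrays was lower (539.1 to 393.6), as was a dim one (144.6 to 69.4, the latter under the floor). The direction of Usp19 thus rests on 1 probe set, and the median over its detected probe sets was -0.29. Usp30, the mitochondrial deubiquitinase that opposes mitophagy, had -0.77 (363.9 to 213.6). Usp20 and Usp33, related enzymes that deubiquitinate adrenergic receptors, had -0.36 and -0.63, and Usp32, found at the Golgi, had 0.15. Usp6nl lay just short of 2-fold, at 301.9 and 153.6 (log2 -0.97), with its other measured probe set at -0.83.

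The remaining Usp genes included Usp53, found at cell junctions, with 263.5 without triptolide and a signal under the floor with it (80.5), at least 2.23-fold lower. A second probe set of Usp53 behaved likewise (303.3 to 68.6). Its relative Usp54 had -0.69 (195.9 to 121.6). Usp24, a very large protease, was lower on all 3 measured probe sets, from 576.7 to 411.5 on the main one (log2 -0.49) and at least 2-fold on the others (-1.03 and -1.34). Usp31 had 0.58 (206.5 to 308.2) on its main probe set and -0.74 (244.8 to 146.1) on the other measured one, and another went from 283.6 to 26.7, the latter under the floor. Usp39, an inactive member of the family that serves in splicing, had 0.13 (2526.4 to 2766.8) and 0.35. Usp36, which acts in the nucleolus and stabilises MYC, had 0.12 (731.8 to 794.7) on the main probe set, and -0.21 and -0.99 (256.2 to 129.4) on the others. Usp40 had 0.16 near the floor (134.8 to 150.3).

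**Figure D3:**
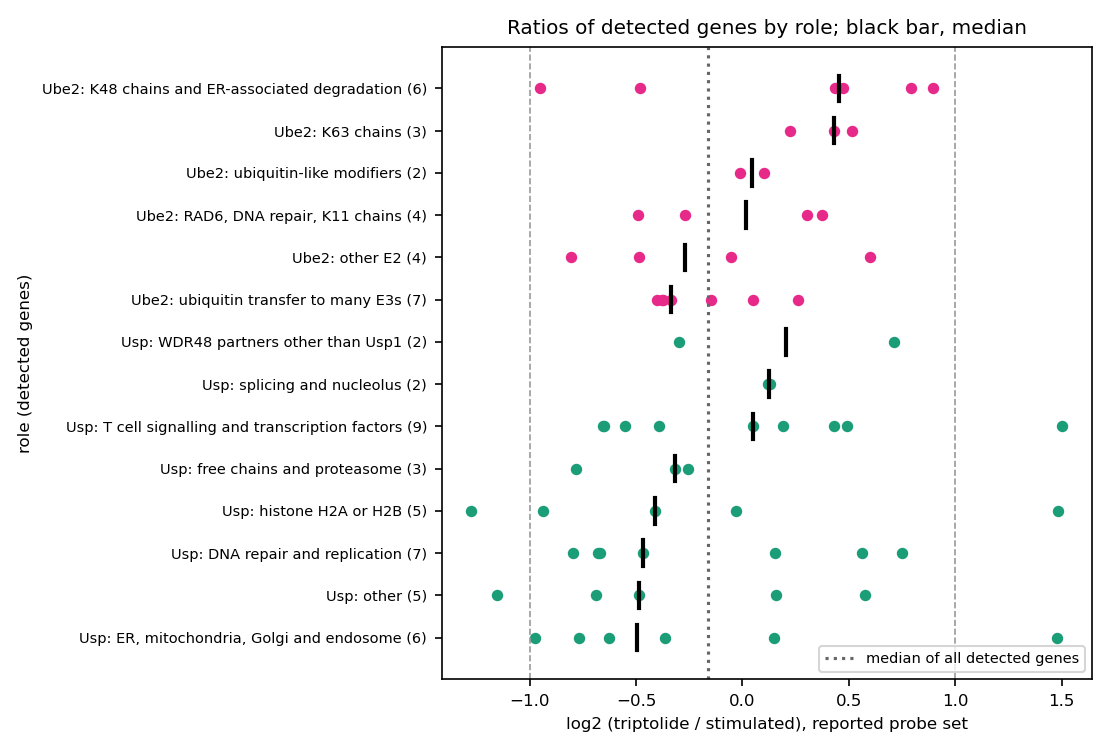
Log2 ratio (triptolide over stimulated, main probe set) of each detected gene, grouped by role with the number of detected genes in brackets; black bars are medians, the dotted line is the median of all detected genes (-0.16) and dashed lines mark 2-fold. Role medians run from -0.50 (Usp genes of the ER, mitochondria, Golgi and endosome) to 0.45 (Ube2 genes of lysine 48 chains and ER-associated degradation), with wide overlap between roles.

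Probe sets of one gene are not replicates, since they share the RNA. Their spread shows how far ratios differ between probe sets of a gene. It does not give the precision between cultures or arrays, which is unknown here. Over all genes with several probe sets measured on both arrays, the SD between the brightest pair was 0.49 (log2) per probe set. Of 18 Ube2 genes with at least 2 such probe sets, 4 were higher on all (Ube2g2, Ube2k, Ube2r2 and Ube2v1), 3 lower on all (Ube2g1, Ube2j2 and Ube2w) and 11 mixed. Of 18 Usp genes, 2 were higher on all (Usp37 and Usp39), 9 lower on all and 7 mixed. Those lower on all were Usp1, Usp3, Usp6nl, Usp12, Usp14, Usp22, Usp24, Usp34 and Usp48. Among all 3733 genes of this kind, 813 were higher on all, 1545 lower on all and 1375 mixed. In percent, lower on all were 50 of the Usp, 16.7 of the Ube2 and 41.4 of all genes.

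Counted by probe set instead of by gene, 12 of 80 detected Usp probe sets (15%) passed 2-fold downwards and 3 (3.75%) upwards, beside 12.8% and 5.69% of all 19209 detected probe sets. The 12 belonged to 7 genes, Usp3, Usp14, Usp22, Usp24, Usp31, Usp48 and Usp53. The median log2 ratio of Usp probe sets was -0.40, and 67.5% lay below 0, beside -0.17 and 60.8% of all. Of 62 detected Ube2 probe sets, 4 passed 2-fold upwards (Ube2g2, Ube2n and 2 of Ube2h) and 2 downwards (Ube2d3 and Ube2j2), with a median of 0.01. The lower share of Usp probe sets is near that of the whole array.

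**Figure D4:**
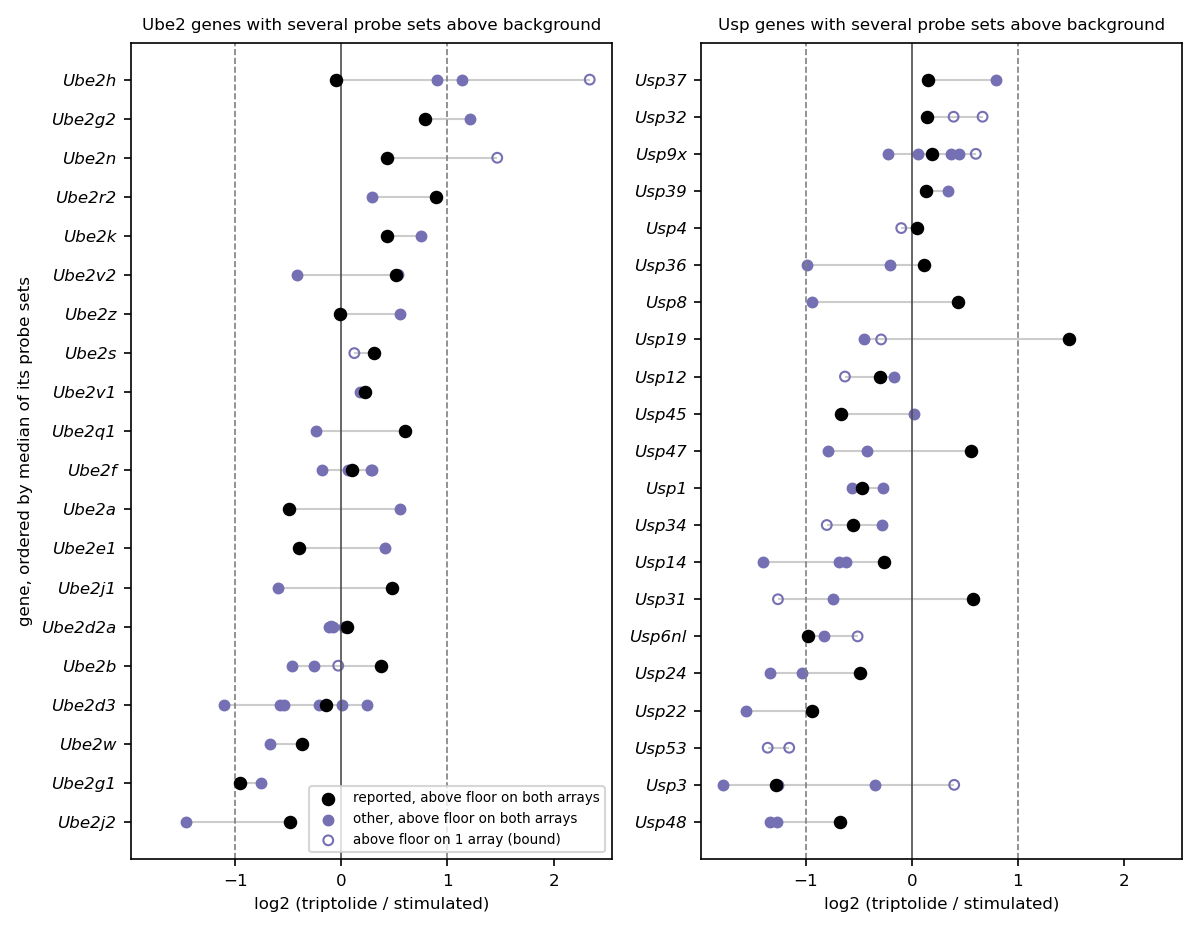
Log2 ratio (triptolide over stimulated) of every probe set above the floor on at least 1 array, for Ube2 (left) and Usp genes (right) with several such probe sets, ordered by their median; black, the main probe set and, in colour, the others where above the floor on both arrays, open, a bound with 1 side at the floor. All points of Usp48, Usp22 and Usp24 lie left of 0 and those of Ube2g2 right of it. Usp3 lies on the left apart from a bound at 0.40, and Ube2h on the right apart from its main probe set at -0.05. The points of Usp19, Usp8 and Ube2j1 also fall on both sides of 0.

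Other genes of the pathway were taken from fixed lists, which were chosen with earlier results of these data known. All 6 detected E1 genes lay within 2-fold, as did 82% of all detected genes. The E1 median was -0.08, with ratios from Uba6 (731.7 to 424.1, log2 -0.79) to Uba3, of the NEDD8 E1 (1946.8 to 2557.8, log2 0.39). Of 7 detected E2 genes with other names, 1 was at least 2-fold higher and none lower, beside 5.6% and 12.4% of all detected genes. The higher one was the SCF partner Cdc34 (1716.0 to 3725.7, 2.17-fold), and its relative Ube2r2 went the same way. Of the 7, 4 had a ratio below 0, with a median of -0.20 and Aktip lowest (314.5 to 158.8, log2 -0.99). Of 4 detected genes for ubiquitin-like proteins, Urm1 was at least 2-fold higher (446.0 to 1067.7). Nedd8 had 5303.2 and 10589.8, just short of 2-fold. Of these 4 genes, 2 lay below 0, with Ufm1 lowest (1238.3 to 787.1, log2 -0.65).

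Among 24 detected genes listed as deubiquitinases or their relatives without a Usp symbol, only the NFκB inhibitor Tnfaip3 (4114.3 to 1544.6) passed 2-fold, downwards. The median of the 24 was -0.27. Of 9 genes for SUMO proteases and their relatives 1 passed 2-fold, Desi1 (1583.1 to 775.0, lower), with a median of -0.13. The list of E3 ligases known from T cells also held their HECT-type relatives. Of 19 detected, 8 passed 2-fold downwards and 1 upwards, with a median of -0.90, beside 12.4%, 5.6% and -0.16 of all detected genes. T cell markers shifted the same way (4 of 12 at least 2-fold lower, median -0.48), and their part in this count was not tested. Because the E3 list was chosen with earlier results of these data known, its contrast with all genes is no test. The lowest were Peli1, a ligase that restrains T cell activation (3554.2 to 1147.9, 3.10-fold), and Traf6, a partner of Ube2n in lysine 63 chains (1381.4 to 451.6, 3.06-fold). The highest were the RNA-binding ligases Rc3h2 (1076.9 to 2200.7, 2.04-fold) and Rc3h1 (log2 0.89). Among 16 partner genes of the members, 14 lay within 2-fold and 13 below 0, beside 82% and 60.2% of all detected genes. Their median was -0.22. The 2 past 2-fold were Fancl, the E3 that Ube2t serves, 2.38-fold lower (900.3 to 379.0), and Eny2, a SAGA subunit beside Usp22, 2.11-fold higher (1633.9 to 3445.9).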

How the data were processed

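Total RNA was labelled with biotin and hybridised to Affymetrix 3′ arrays, 1 per condition. The deposited values are MAS5 signal intensities on a linear scale, per the submitters' processing notes, with version and scaling settings not stated there. Over the first 100 listed probe sets the 2% trimmed mean came to 2000 on each array, so these appear to have set the scale. They include 3 probe sets of members (Ube2g1, Ube2r2 and Ube2v1). Over all 45037 it was 383 without and 340 with triptolide.

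Names came from the platform annotation (34945 probe sets with 1 gene symbol, 932 with several, 9160 with none) and, for 34741, by Entrez number from RefSeq (GRCm38.p6). Only probe sets of exactly 1 gene entered. The floor is the higher of both arrays' 95th percentiles over 87 chemosensory receptor probe sets. Log2 ratios used floored signals, and differences of at least 2-fold were counted. No test between groups was run. By the rule for naming, members past or just short of 2-fold, with discordant probe sets, or among the 6 brightest of a family have their signals printed. Other pathway genes are the 2 highest or lowest of fixed lists, except Wdr48, which was picked after its value was seen. Members, lists, roles and printed sequences were chosen with earlier results of these data known. The calculation was tested on simulated data (Python 3.11.15, numpy 2.4.6, pandas 2.3.3). The number of arrays limits the precision. The closing section gives 9 alternative settings.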

Additional observations from a re-analysis of the deposited data

How the results depend on the processing

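No paired analysis was possible because each group has 1 array. None of the 26 detected Ube2 genes was at least 2-fold higher as deposited, against 1 (Ube2r2) with each array divided by its median, by its trimmed mean over all probe sets or after quantile normalization, and 2 (Ube2g2 and Ube2h) with the median over detected probe sets of a gene. The number at least 2-fold lower went from 0 to 1 (Ube2j2) without probe sets ending in _s_at, _x_at or _a_at, where the Ube2 median also changed sign, from 0.019 to -0.077. For Usp genes, the number higher fell from 3 to 1 without those probe sets, which are the ones that carry Usp19 and Usp38. The number lower went from 2 to 1 with a doubled floor, a pseudocount or only bright genes, and to 5 with the median over probe sets (Usp3, Usp22, Usp24, Usp48 and Usp53). Over the 9 alternatives the Usp median ran from -0.39 to -0.13 and stayed below 0. Usp3 stayed at least 2-fold lower in 9 of 9 alternatives and Usp38 at least 2-fold higher in all 8 that gave it a value. Usp19 turned to -0.29 with the median over probe sets, where its probe sets disagree. Usp53 ranged from -1.71 to -0.15 and Usp49 from 0.51 to 1.63. The median of all detected genes moved from -0.16 to between -0.22 and 0.01, and lower genes made up 68.8% of 2-fold differences as deposited, 58.1% after median scaling, 53.9% after trimmed-mean scaling and 50.8% after quantile normalization. Dim genes near the floor are the least certain.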

Other observations

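Some probe sets that match a member also match other genes and entered no comparison. The 4 probe sets of Ube2l3, an E2 that serves HECT and RBR ligases, are shared with 4 predicted genes. The brightest had 9142.0 without and 7101.5 with triptolide (log2 -0.36), and the others had log2 ratios of -0.16, -0.05 and 0.07. A probe set shared by Usp50 and Polr2l, a subunit of RNA polymerases, went from 2559.6 to 7824.1, while the probe sets of Usp50 alone were below the floor on both arrays. One shared by Usp49 and Med20 had 185.5 and 185.3, beside the 2.79-fold difference on the probe set of Usp49 alone.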
